A study of Mus musculus with 16 samples.

Results

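Between the embryonic stages E13.5 and E16.5, named for the day after mating, the accessible regions of Morc1 heterozygous male germ cells were compared by position. The E13.5 list held 40448 ATAC-seq peaks and the E16.5 list held 53687. A peak of one list that shared at least 1 bp with a peak of the other was called kept. The other E13.5 peaks were called lost and the other E16.5 peaks were called gained. The comparison thus divided 71206 regions, of 302829 peaks in the 6 distinct lists of the series, into 17519 lost, 22929 kept and 30758 gained peaks.

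ATAC-seq marks open chromatin with a transposase that inserts sequencing adapters where DNA is accessible. The cells were gonocytes, as male germ cells are called from the fetal testis until shortly after birth, taken from Mvh-Venus transgenic mice, which carry a fluorescent reporter driven by the germ-cell gene Mvh (Ddx4). The groups compared were Morc1 (+/-) testis germ cells, with 2 samples at either stage. Both groups carry 1 disrupted Morc1 allele, so neither is wild type, and all samples come from the reporter strain. Morc1 (-/-) cells of the same reporter strain and the same stages, and cells at postnatal days 0 and 3 (P0, P3), served as further readouts. The P0 lists of the 2 genotypes were identical, as were the P3 lists, so each was used once with no genotype attached.

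Gonocytes divide at E13.5, enter mitotic arrest in the following days and resume division around birth. In the same interval male germ cells switch off pluripotency genes, take on the male fate under NANOS2 and Nodal signalling, build the piRNA machinery and begin de novo DNA methylation. MORC1 is an ATPase needed for transposon silencing in these cells. In most cell types promoters with many CpG dinucleotides are open throughout, whereas distal regions open and close with cell state.

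The deposited lists give 1 set of peaks per stage and genotype, with no height, score or replicate value. No difference below could therefore be set against the spread between replicates, and no test was possible. The 95% Wilson intervals cover counting error over peaks only, and read depth is unknown. Each kept E13.5 peak paired with 1 kept E16.5 peak, so the excess of gained over lost peaks, 13239, equals the difference in list length, which also depends on depth and calling threshold. The Morc1 start itself (chr16:48431237 on GRCm38) had a peak in all 6 lists, the knockout lists included. Among defining germ-cell genes, the starts of Ddx4, which encodes an RNA helicase, and Dazl, which encodes an RNA-binding protein, had kept peaks found in all 6 lists. The Dazl peak centre lay 752 bp from the nearest start, and with a start window of 500 bp Dazl met a peak at E16.5 and none at E13.5. Other germ-cell genes differed. Of 16 listed, 11 had a peak within 1000 bp of a start or outer end at E13.5 (68.8%), against 60.2% of all coding genes. Of these 11, 2 lost it, Prdm14 and Dppa3, against 5.02% of all such coding genes. Tfap2c had none in any of the 6 lists.

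Of the E13.5 peaks, 43.3% were lost (42.8% to 43.8%), and of the E16.5 peaks, 57.3% were gained (56.9% to 57.7%). Few calls lay near the overlap limit. Kept peaks shared a median of 464 bp, nearly the fixed width of the deposited peaks, with centres a median of 37 bp apart, and 77 of them (0.336%) shared under 50 bp. Just outside the limit, 584 lost peaks (3.33%) had an E16.5 peak within 500 bp, and 604 gained peaks (1.96%) had an E13.5 peak within 500 bp.

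Kept peaks lay at gene starts far more often than lost or gained peaks, which were mainly distal, and gained peaks lay farther out than lost ones. A peak was placed at a gene start when it overlapped the 1000 bp on either side of a protein-coding gene's start. Of kept peaks, 50.02% lay at a gene start, against 6.07% of lost peaks (5.73% to 6.44%) and 4.22% of gained peaks. With listed starts alone, the shares were 40.9% of kept, 4.38% of lost and 3.08% of gained peaks. Between genes lay 29.7% of kept, 50.3% of lost and 71.6% of gained peaks. The remaining peaks lay elsewhere inside genes and made up 20.3% of kept, 43.6% of lost and 24.2% of gained peaks. With the starts of all annotated genes, noncoding ones included, 55.9% of kept, 11.3% of lost and 10.1% of gained peaks lay at a start.

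**Figure D1:**
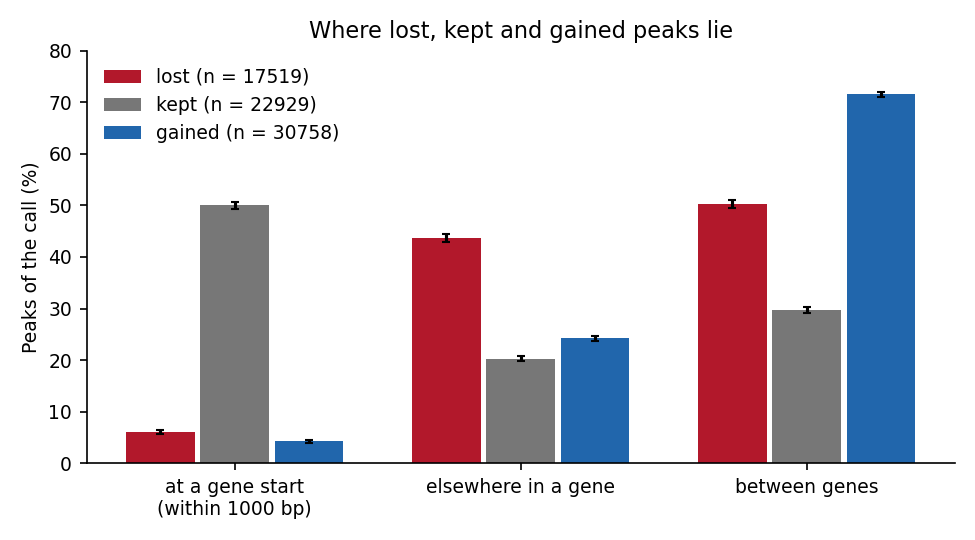
Share of lost, kept and gained peaks (y axis, %) at gene starts, elsewhere in genes and between genes (x axis), with 95% Wilson intervals as error bars. Kept peaks stand out at gene starts (50.02%) and gained peaks between genes (71.6%).

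Seen from the places, gene starts were the most stable. Of the E13.5 peaks at gene starts, 8.49% were lost, and of the E16.5 peaks there, 10.2% were gained. Inside genes 62.2% of E13.5 peaks were lost and 61.5% of E16.5 peaks were gained, so gains and losses were about equal in number (0.975 gained per lost peak). Between genes 56.4% were lost and 76.4% gained, or 2.50 gained peaks for each lost peak.

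The median distance from a peak's centre to the nearest gene start was 1.24 kb for kept peaks, 36.1 kb for lost peaks and 108 kb for gained peaks. More than 1000 kb from any gene start lay 8.51% of gained peaks, against 0.868% of lost and 0.715% of kept peaks. A further 42.9% of gained peaks lay 100 to 1000 kb away, against 24.2% of lost peaks. The most common distance class of lost peaks was 10 to 100 kb, with 54.6% of them.

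**Figure D2:**
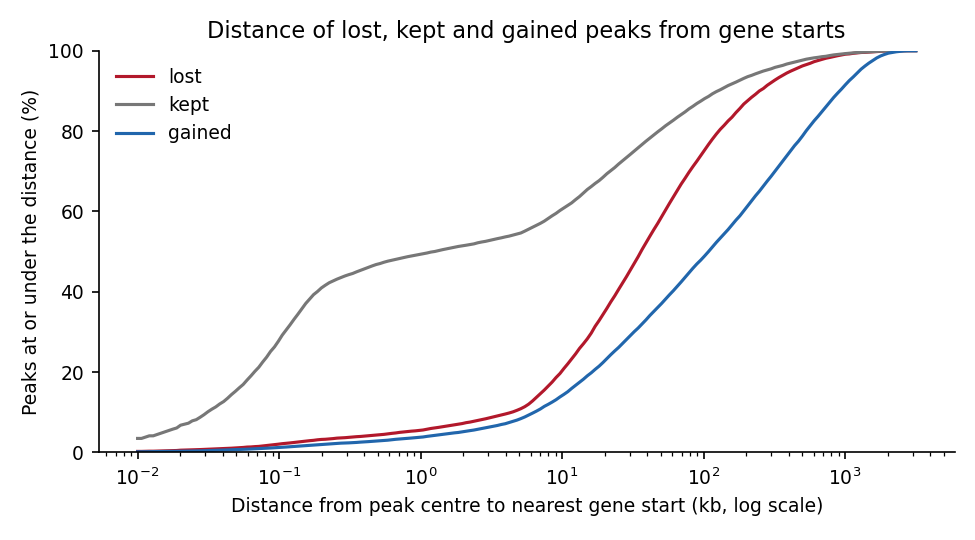
Cumulative share of peaks (y axis, %) at or under each distance from the nearest gene start (x axis, kb, log scale) for the 3 calls. The curve of gained peaks lies to the right of that of lost peaks, with medians of 108 and 36.1 kb.

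The promoters that open or close are the members nearest to genes, and 8 of their sequences are shown here to set the gained and lost promoters of germ-cell and signalling genes side by side. Each run holds 300 bases, from 250 before to 50 after a RefSeq start on GRCm38.p6, read 5′ to 3′ along the gene, with CpG dinucleotides in capitals. The first 4 windows met a peak at E16.5 and none at E13.5. Gtsf1 (chr15:103430378-103430677, minus strand) encodes a zinc-finger protein of the piRNA pathway, Tdrd9 (chr12:111971309-111971608, plus strand) a helicase and Piwil1 (chr5:128735996-128736295, plus strand) a PIWI protein of the same pathway, and Sohlh1 (chr2:25847199-25847498, minus strand) a transcription factor of spermatogonial differentiation.
Gtsf1: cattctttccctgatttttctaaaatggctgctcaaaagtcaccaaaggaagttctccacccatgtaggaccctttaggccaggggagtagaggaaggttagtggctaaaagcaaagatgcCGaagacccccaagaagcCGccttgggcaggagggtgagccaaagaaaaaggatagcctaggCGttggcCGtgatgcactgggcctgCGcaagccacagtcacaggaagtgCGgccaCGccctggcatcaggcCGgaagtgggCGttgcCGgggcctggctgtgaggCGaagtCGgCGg
Tdrd9: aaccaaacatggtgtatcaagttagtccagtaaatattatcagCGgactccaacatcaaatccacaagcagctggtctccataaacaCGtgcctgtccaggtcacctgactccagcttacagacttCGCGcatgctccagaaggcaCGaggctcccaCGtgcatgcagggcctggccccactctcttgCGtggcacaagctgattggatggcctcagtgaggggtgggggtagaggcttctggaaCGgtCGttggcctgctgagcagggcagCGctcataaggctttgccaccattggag
Piwil1: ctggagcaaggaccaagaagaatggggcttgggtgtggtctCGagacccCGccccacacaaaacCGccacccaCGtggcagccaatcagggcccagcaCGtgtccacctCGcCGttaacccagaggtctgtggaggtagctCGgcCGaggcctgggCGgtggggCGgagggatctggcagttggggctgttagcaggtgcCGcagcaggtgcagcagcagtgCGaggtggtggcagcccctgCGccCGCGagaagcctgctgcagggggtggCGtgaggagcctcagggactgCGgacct
Sohlh1: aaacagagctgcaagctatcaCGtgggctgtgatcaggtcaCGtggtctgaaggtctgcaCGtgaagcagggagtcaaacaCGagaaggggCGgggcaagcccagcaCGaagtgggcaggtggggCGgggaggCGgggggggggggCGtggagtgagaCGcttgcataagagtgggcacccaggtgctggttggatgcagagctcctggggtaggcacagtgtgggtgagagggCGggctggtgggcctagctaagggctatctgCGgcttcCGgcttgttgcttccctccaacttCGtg
The next 4 windows met a peak at E13.5 and none at E16.5. Lin28a (chr4:134018767-134019066, minus strand) encodes an RNA-binding protein that blocks let-7 maturation, Nanog (chr6:122707239-122707538, plus strand) a pluripotency factor, Hes5 (chr4:154960673-154960972, plus strand) a transcriptional repressor downstream of Notch, and Dll1 (chr17:15375774-15376073, minus strand) a Notch ligand.
Lin28a: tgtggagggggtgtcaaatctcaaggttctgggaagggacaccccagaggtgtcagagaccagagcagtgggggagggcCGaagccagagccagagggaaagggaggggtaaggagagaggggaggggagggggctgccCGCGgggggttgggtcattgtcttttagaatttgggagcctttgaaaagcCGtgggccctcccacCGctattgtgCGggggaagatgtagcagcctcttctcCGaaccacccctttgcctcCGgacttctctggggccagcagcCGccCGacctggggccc
Nanog: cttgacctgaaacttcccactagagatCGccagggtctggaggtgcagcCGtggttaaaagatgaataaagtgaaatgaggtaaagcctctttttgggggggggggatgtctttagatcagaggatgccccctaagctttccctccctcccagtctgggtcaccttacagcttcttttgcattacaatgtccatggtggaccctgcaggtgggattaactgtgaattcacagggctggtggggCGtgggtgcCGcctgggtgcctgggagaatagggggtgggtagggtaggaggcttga
Hes5: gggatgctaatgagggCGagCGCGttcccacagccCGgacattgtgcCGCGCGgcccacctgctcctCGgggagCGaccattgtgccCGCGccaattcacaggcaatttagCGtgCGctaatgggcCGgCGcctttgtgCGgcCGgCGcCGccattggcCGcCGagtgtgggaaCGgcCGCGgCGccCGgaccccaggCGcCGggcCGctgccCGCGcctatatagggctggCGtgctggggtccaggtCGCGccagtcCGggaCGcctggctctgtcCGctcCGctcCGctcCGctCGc
Dll1: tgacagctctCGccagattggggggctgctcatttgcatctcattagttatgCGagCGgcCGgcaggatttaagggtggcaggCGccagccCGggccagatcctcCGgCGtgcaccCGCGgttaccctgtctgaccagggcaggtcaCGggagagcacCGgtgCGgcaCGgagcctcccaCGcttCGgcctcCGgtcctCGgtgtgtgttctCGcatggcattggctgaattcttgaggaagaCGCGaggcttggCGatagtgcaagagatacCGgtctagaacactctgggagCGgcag
CpG counts ranged from 10 (Tdrd9) to 18 (Piwil1) in the gained windows and from 4 (Nanog) to 41 (Hes5) in the lost ones. The letters CACGTG, an E-box, occur in the gained windows of Tdrd9, Piwil1 and Sohlh1 and in none of the 4 lost windows. These 8 promoters were chosen after their calls were known.

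Across all promoter windows, those that opened or closed had fewer CpGs than those open at both stages. Of 21263 windows, 10040 met a peak in both lists, 848 at E13.5 and not E16.5, 792 at E16.5 and not E13.5, and 9583 in neither. The median CpG count was 23 in kept, 14 in lost, 11 in gained and 3 in windows without a peak in either list. Windows with under 5 CpGs made up 1.32% of kept, 13.3% of lost and 15.5% of gained windows.

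Short motifs of promoter-binding factors were counted on both strands in the same windows. The GC box GGGCGG, the letters bound by SP factors, was in 72.0% of kept, 55.3% of lost and 45.7% of gained windows, and in 46.2% of all. The ETS site CCGGAAGT was in 9.19% of kept, 2.83% of lost and 2.65% of gained windows (5.15% of all). The letters GCGCATGC, part of the NRF1 site, were in 6.20% of kept, 1.30% of lost and 3.41% of gained windows (3.52% of all). CACGTG was in 10.9% of kept, 7.78% of lost and 10.6% of gained windows (7.84% of all), and the octamer ATGCAAAT, bound by POU factors, was in 1.37%, 2.83% and 1.14% (1.66% of all). For the GC box and the ETS site, gained and lost windows lay closer to each other than to kept windows.

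By gene, most starts had a peak at both stages. Of 13170 protein-coding genes with a peak within 1000 bp of a start at E13.5, 661 had none at E16.5 (5.02%). Of 8717 genes without one at E13.5, 869 had one at E16.5 (9.97%). The other 12509 genes with an E13.5 start peak had one at both stages, and are said here to have kept a start peak. In 12245 of them a kept peak lay at a start, and in 264 the start peaks of the 2 stages did not overlap. Of the 12509 genes, 39.9% had at least 1 lost peak in the gene or within 10 kb of it, 31.8% at least 1 gained peak, and 45.4% neither.

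Pluripotency genes were among those that lost start peaks. Of 18 listed genes with an E13.5 start peak, 5 lost it, Lin28a, Lin28b, Nanog, Sall4 and Fbxo15, against 5.02% of all such coding genes. Around Nanog 3 peaks were lost and 1 kept. The lost ones lay 123 bp from the start and 4796 and 8506 bp from the nearest start. The Nanog start peak was in both knockout lists and not at P0 or P3, and the lost peak at chr6:122702443-122702943 was found again at P0 and P3. Lin28a lost the peak 92 bp from its start (chr4:134018658-134019158), found in the E13.5 knockout list and in no later list, and Fbxo15 had the same pattern. Sall4 had a start peak in all 4 other lists, and Lin28b in none. Start peaks of Sox2, Klf4, Zfp42 and Esrrb, which encode further pluripotency factors, were kept.

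In the opposite direction, 3 of 7 pluripotency genes without an E13.5 start peak gained one. These were Pou5f1, Nr5a2 and Gdf3, against 9.97% of all coding genes without one. For Gdf3, whose strand was not at hand, both outer ends of the gene were treated as starts. Its gained peak lay 292 bp from 1 outer end, and its P0 and P3 peaks lay at the other. At Pou5f1, which encodes OCT4, the gained peak (chr17:35505708-35506208) lay 74 bp from the start and was also in the E16.5 knockout and P0 lists. The peak 1941 bp away was lost, and the E13.5 knockout list also held it. With 1 kept peak, Pou5f1 had the same number of peaks at both stages.

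Genes of germ-cell identity had more lost than gained peaks. The 16 listed genes held 28 lost, 20 kept and 9 gained peaks, and 10 of them had more lost than gained while 1 had more gained. All protein-coding genes together held 12370 lost, 25302 kept and 12952 gained peaks. Of these 21887 genes, 5015 had more lost and 4850 more gained. Prdm1, which encodes the repressor BLIMP1 that specifies germ cells, kept its start peak and had 7 lost peaks in and around the gene. All 7 were in the E13.5 knockout list and in none of the 3 later lists. Prdm14, which encodes a second specification factor, lost 3 peaks with that same pattern, one of them 100 bp from its outer end. Dppa3 (Stella) lost 3 peaks, including 1 at its outer end that the E13.5 knockout list did not hold. Nanos3, needed for germ-cell survival, lost a peak 4203 bp from the nearest start that returned in the P0 list. Sox17 met a peak within 1000 bp of an outer end at E16.5 and not at E13.5, but had 0 gained peaks. With a start window of 500 bp Sox17 had no start peak at either stage. Strand was not at hand for some genes, among them Prdm14, Dppa3, Sall4, Fbxo15, Gdf3, Lefty1, Spo11 and Crabp2. For these both outer ends were treated as starts.

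Kit, the receptor for stem cell factor, kept its start peak while 3 peaks inside the gene were lost and 3 others gained. The lost peaks at 11896 and 26781 bp from the start were found in the E13.5 knockout list and no later list. The gained peaks at 12917 and 14640 bp were found in the E16.5 knockout list and not at P0 or P3. The start of Kit was thus in both lists while the peaks inside the gene differed.

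Among genes of male germ-cell fate and Nodal signalling, 3 of 17 with an E13.5 start peak lost it and 0 of 4 without one gained one, against 5.02% and 9.97% of all coding genes. The ligand gene Nodal lost its start peak (chr10:61417954-61418454), which was present in both knockout lists and at P0, and gained a peak 5514 bp from the start inside the gene. Lefty1, a Nodal antagonist, lost a peak 213 bp from its outer end found in the E13.5 knockout list and no later list. Tdgf1, the Nodal co-receptor, lost both peaks assigned to it, and 1 of them was in all 4 other lists. Fgf9, a ligand of the fetal testis, lost a peak 553 bp from its start. The receptor and effector genes Acvr1b, Acvr2a, Acvr2b, Smad2, Smad3, Smad4 and Foxh1 kept their start peaks.

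Of 20 Notch genes with an E13.5 start peak, 6 lost it, against 5.02% of all coding genes. They were the ligand genes Dll1 and Dll3, the target genes Hes1 and Hes5, the glycosyltransferase gene Mfng and the coactivator gene Maml2. The receptor genes Notch1, Notch2 and Notch3, the ligand genes Jag1 and Jag2, and Rbpj, which encodes the DNA-binding partner of Notch, kept theirs. The start peaks of Dll1, Dll3, Hes1 and Hes5 were in the E13.5 knockout list and not in the E16.5 knockout list. Those of Mfng and Maml2 were in both. The Hes1 peak centre lay 1110 bp from the nearest outer end, and with a start window of 500 bp Hes1 had no start peak at either stage, which left 5 of 19. No gene of this list gained a start peak, of 3 without one, against 9.97% of all coding genes.

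All 19 piRNA genes with an E13.5 start peak had one at both stages, against 5.02% of all such coding genes losing it. Of 6 without one, 3 gained one, Gtsf1, Tdrd9 and Piwil1, against 9.97% of all coding genes. All 3 peaks were absent from the E13.5 knockout list and present in the E16.5 knockout and P0 lists, and those of Gtsf1 and Piwil1 also at P3. The Gtsf1 peak (chr15:103430161-103430661) was the one peak within 10 kb of that gene at either stage. The Tdrd9 peak (chr12:111971303-111971803) had its centre 6 bp from the start. Piwil4, which encodes the nuclear PIWI protein of fetal germ cells, kept its start peak, with 2 other peaks lost and 1 gained.

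Of the genes of DNA methylation, all 16 with an E13.5 start peak had one at both stages, and Dnmt3l, the cofactor of de novo methylation, gained one. Of all coding genes, 5.02% with such a peak lost it and 9.97% without one gained one. At Dnmt3l the gained peak 111 bp from a start inside the gene (chr10:78049481-78049981) was in the E16.5 knockout and P0 lists and not in the E13.5 knockout list. The E13.5 knockout list had another peak within 1000 bp of a Dnmt3l start. Dnmt3a, a de novo methyltransferase, had a kept peak 30 bp from a start among 3 lost, 4 kept and 4 gained peaks, and 1 of the lost peaks lay 491 bp from another start. The gained peaks of Dnmt3a at 26980 and 41973 bp from the nearest start were in the E16.5 knockout, P0 and P3 lists. The 5-methylcytosine oxidase gene Tet1 gained 2 peaks within the gene, both in the E16.5 knockout, P0 and P3 lists. Dnmt1, Dnmt3b and Uhrf1 kept their start peaks.

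Of the heterochromatin and MORC genes, all 26 with an E13.5 start peak had one at both stages, against 5.02% of all such coding genes losing it. At Cbx3, which encodes HP1 gamma, these were different peaks, a lost one 82 bp from the nearest start and a gained one beside it. The 2 genes without an E13.5 start peak, Morc2b and Ehmt2, each gained one, against 9.97% of all coding genes without one. The gained Morc2b peak lay 24 bp from its start and was in the E16.5 knockout and P0 lists. Ehmt2, which encodes the H3K9 methyltransferase G9a, gained a peak near an annotated start that was in none of the 4 other lists. Another peak assigned to Ehmt2 was kept, 224 bp from the nearest start of any gene but outside the start window of Ehmt2. Kdm4c, an H3K9 demethylase gene, gained 5 peaks and lost 2. Morc1 lost 1 peak inside the gene, 16862 bp from the nearest start, which was in the E13.5 knockout list and no later list.

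No listed cell-cycle gene went from having a start peak to having none, or the reverse. Among all coding genes 5.02% lost an E13.5 start peak and 9.97% of those without one gained one, so lists of this size would hold few changes. All 20 genes of CDK inhibitors and pocket proteins had one at both stages, Cdkn1b, Cdkn2b, Cdkn1c and Rb1 among them. All 34 cell-cycle drivers with an E13.5 start peak, such as Mki67, Ccnb1, Cdk1 and Mcm2, had one at both stages. At Mcm7 these were different peaks, a lost one 64 bp and a gained one 58 bp from the nearest start. Distal peaks were lost at some, with 4 lost and 0 gained at the D-cyclin gene Ccnd3, and 4 lost and 1 gained at Rb1, the retinoblastoma gene. The 4 lost Ccnd3 peaks were in the E13.5 knockout list and absent from the E16.5 knockout and P0 lists. All 37 ribosomal protein genes with an E13.5 start peak had one at both stages.

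Of 21 spermatogonial stem-cell genes with an E13.5 start peak, 3 lost it, Bcl6b, Gfra1 and Foxc2, and 1 of 6 without one gained one, T, against 5.02% and 9.97% of all coding genes. With a start window of 500 bp Bcl6b had no start peak at either stage. Gfra1 encodes the GDNF co-receptor, and its lost start peak, 423 bp from the start, was in none of the 4 other lists. Etv5, a GDNF target gene, kept its start peak and lost 3 intragenic peaks, all in the E13.5 knockout list and in no later list. Of 7 differentiation genes without an E13.5 start peak, 3 gained one, against 9.97% of all coding genes. They were the transcription factor gene Sohlh1, the retinoic acid receptor gene Rarg and Dmrtb1. The Sohlh1 peak (chr2:25847121-25847621) was in the E16.5 knockout, P0 and P3 lists and not in the E13.5 knockout list, whereas Rarg and Dmrtb1 had start peaks in that list.

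Of 25 meiotic genes with an E13.5 start peak, 24 had one at both stages. Spo11, which encodes the enzyme that makes meiotic double-strand breaks, lost a peak 237 bp from its outer end. The lost share of 4% lay near the 5.02% of all coding genes. Of 4 without one, Majin gained one 46 bp from an outer end, against 9.97% of all coding genes. Majin had a start peak at P0 and P3 and in neither knockout list. In the retinoic acid pathway 2 of 14 genes lost their start peak and 3 of 7 without one gained one, against 5.02% and 9.97% of all coding genes. Aldh1a1, whose enzyme makes retinoic acid, and Dhrs3, whose enzyme reduces retinal, lost theirs, and both were in the E13.5 and not in the E16.5 knockout list. The degrading enzyme gene Cyp26a1 gained a peak 24 bp from its start, found in the E16.5 knockout list alone of the 4 others. Rarg and the carrier gene Crabp2 also gained one, though both had a start peak in the E13.5 knockout list. The Crabp2 peak lay 693 bp from an outer end that may not be its start. In this pathway 11 of the 21 genes had more gained than lost peaks while 4 had more lost. Of all 21887 coding genes, 4850 had more gained and 5015 more lost.

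The Wnt genes lay near the background in lost starts, with 2 of 32 (6.25%) against 5.02% of all coding genes. These were Rnf43, which encodes a ligase that removes Wnt receptors, and the R-spondin gene Rspo1. Both had a start peak in both knockout lists and at P0, and Rnf43 also at P3. With a start window of 500 bp, 3 of 31 Wnt genes lost theirs (9.68%). The ligand genes Wnt3 and Wnt11 gained a start peak, 2 of 8 without one, against 9.97%. Wnt3 also had its start peak in the E16.5 knockout, P0 and P3 lists. At the start where Wnt11 gained its peak, the E13.5 knockout and P0 lists had one. The E16.5 knockout list had a peak only at another Wnt11 start. Of BMP genes 0 of 22 lost their start peak and 1 of 4 gained one, the ligand gene Bmp4. The Bmp4 peak lay 8 bp from the start and was in the E16.5 knockout and P0 lists.

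Markers of other testis cells were counted in the same way. Of Sertoli markers, 8 of 16 had an E13.5 start peak, of interstitial and Leydig markers 7 of 18, and of endothelial and blood markers 7 of 19, against 60.2% of all coding genes. Their peaks within 10 kb numbered 30, 33 and 32 in the earlier list and 27, 33 and 32 in the later one, in the same order. Sox9, Cst9, Hsd3b1, Csf1r, Gata1 and Hba-a1 had no peak at either stage. Across these lists Fgf9 lost a start peak and Inhbb, Pdgfra and Sox18 gained one, but with a start window of 500 bp Inhbb and Pdgfra had none at either stage. A start peak does not measure expression, and the part of other cells in the calls was not tested.

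Some genes gained or lost many peaks. Of 18027 protein-coding genes with any peak in the gene or within 10 kb, 352 had at least 3 lost and no gained peak (1.95%), and 305 had at least 3 gained and no lost peak (1.69%). The genes with several losses were longer, with a median length of 136 kb against 66.3 kb, and 80.7% of them had a start peak at both stages. Of the genes with several gains, 51.1% had one at both stages, 63 gained one, and 86 had no start peak at either stage. Among all genes with a peak, 69.4% had a start peak at both stages. Of the 305 genes with several gains, 86 also had no kept peak at all. These counts were 204 and 187, in the same order, when lost and gained peaks had to have the same call between the knockout lists. The second count was 168 without the 10 kb extension and 633 when each peak went to the gene of the nearest start.

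The 12 genes with the highest net gain were all long, from 636 kb (Fstl5) to 2271 kb (Ptprd). Lrp1b, which encodes a giant lipoprotein receptor, had 61 gained, 10 kept and 4 lost peaks. Of its gained peaks, 43 were in the E16.5 knockout list, 45 at P0, 26 at P3 and 3 in the E13.5 knockout list. Naaladl2 had 50 gained and 0 lost, with 39 in the E16.5 knockout list and 1 in the E13.5 knockout list. The cadherin gene Cdh18 had 40 gained and 1 lost, the receptor phosphatase gene Ptprd 44 and 6, and the glutamate receptor gene Grik2 32 and 0. Lingo2, Lrrc4c, Cadm2 and Epha6, which encode cell-surface adhesion or guidance proteins, had 35, 29, 32 and 39 gained peaks.

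The 12 genes with the highest net loss included long genes too, and the numbers were smaller. Tenm2, a teneurin gene, had 17 lost, 7 kept and 2 gained peaks, and 14 of the lost ones were in the E13.5 knockout list against 2 in the E16.5 knockout list. Slit3, which encodes a guidance ligand, had 12 lost and 0 gained, and the E13.5 knockout list held 9 of them, the E16.5 knockout list 1 and the P0 and P3 lists none. Utrn, the utrophin gene, had 11 lost and 0 gained, and the same numbers in those lists. The phospholipase C genes Plcb1 and Plcb4, which are neighbours, had 10 and 11 lost. Ebf1, a B-cell transcription factor gene, had 12 lost and 1 gained.

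Aim2, which encodes a cytosolic DNA sensor, stood out for its density, with 10 lost and 0 gained peaks in 116 kb and a lost start peak. All 10 were in the E13.5 knockout list, none was in the E16.5 knockout list, 1 was at P0 and 4 were at P3. Its bounds overlap those of Cadm3, with 5 lost peaks. An unbroken run of 12 lost peaks, with no kept or gained peak between them, began there and extended over 1.09 Mb of the interferon-inducible Ifi200 cluster (chr1:173377462-174470184).

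**Figure D3:**
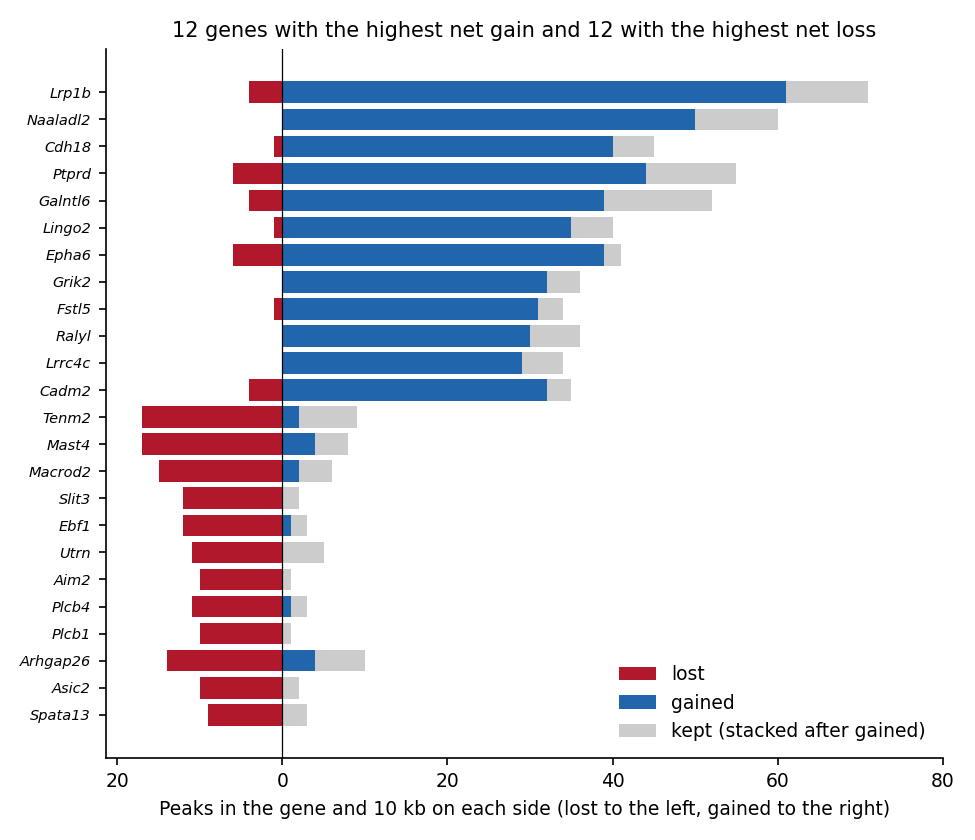
Peaks in each gene and 10 kb on each side (x axis, number) for the 12 genes with the highest net gain (top) and the 12 with the highest net loss, lost to the left, gained and then kept to the right. Gains reach 61 peaks in Lrp1b and losses 17 in Tenm2 and Mast4.

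Of 105 genes with at least 4 gained and no lost peak, the 8 with the most per kb held 4 each. They were the secreted factor gene Prok1, the homeobox gene Crx and its neighbour Crxos, whose extended bounds overlap, and Iyd, Mill1, Pax9, Lhfpl4 and Vmn2r95. All 4 Crx peaks were in the E16.5 knockout list and none in the E13.5 knockout list. At Prok1 the E16.5 knockout list held 1 of the 4. Of 147 genes with at least 4 lost and no gained peak, the 8 densest were Rsph1, Cadm3, Aim2, Txnrd2, Lgi1, Rtn4ip1, Tex21 and Acss1, with 4 to 10 lost peaks.

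The 57 listed genes of neuronal adhesion and synapse held 301 lost, 259 kept and 626 gained peaks, and 35 of them had more gained than lost while 18 had the reverse. Among all 21887 coding genes, 4850 had more gained and 5015 more lost. The median length of the listed genes was 969 kb, against 17.2 kb for all coding genes, and this list was drawn up with the earlier results of these data known. Members went in both directions. Cntnap2, a neurexin-family gene, had 31 gained and 7 lost, Pcdh9, a protocadherin gene, 26 and 5, and Il1rapl1, a synaptic receptor gene, 20 and 1. In contrast Dlgap1, a postsynaptic scaffold gene, had 8 gained and 17 lost, and Dscaml1 had 0 gained and 8 lost. By length, the 227 genes over 500 kb had 9.70 gained and 5.74 lost peaks per Mb. Genes of 20 to 100 kb had 7.89 and 8.82, and genes of 100 to 500 kb had 7.21 and 9.03. The 11848 genes under 20 kb had 11.5 gained and 8.06 lost peaks per Mb. An excess of gains was thus not particular to the longest genes.

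Windows of the genome with few genes held most of the excess of gained over lost peaks. In 1 Mb windows without the start of a coding gene, taken here as its lower outer end, 90.7% of E16.5 peaks were gained, with 6667 gained, 684 kept and 855 lost, or 7.80 gained for each lost peak. These windows were 12.8% of all, unassembled stretches included, and held 21.7% of gained, 4.88% of lost and 2.98% of kept peaks. Windows with 1 to 4 gene starts held 10823 gained and 4741 lost peaks. In windows with 20 or more gene starts 34.0% of E16.5 peaks were gained and 28.4% of E13.5 peaks lost. Per Mb, kept peaks numbered 1.95 in windows without a gene start and 20.5 in those with 20 or more.

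Gained peaks in windows without a gene start were found in the E16.5 knockout list for 73.8%, in the E13.5 knockout list for 3.39%, at P0 for 78.5% and at P3 for 42.7%. In the other windows the shares were 71.4%, 8.05%, 67.7% and 40.1%.

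The chromosomes differed widely in gained share. It was 28.4% on chromosome 11 (26.4% to 30.5%) and 33.3% on chromosome 19, and reached 68.9% on chromosome 14, 66.8% on chromosome 3 and 66.3% on chromosome 1. Chromosome 11 thus had 508 gained and 1078 lost peaks. Among its E16.5 peaks also found in the E16.5 knockout list, 17.7% were in neither E13.5 list. Gene density did not order the chromosomes fully, since chromosome 7, with 14.0 coding genes per Mb against 13.2 on chromosome 11, had 49.4% gained, and chromosome 18, with 5.64, had 48.2%. The lost share ranged less, from 36.2% on chromosome 7 to 52.6% on chromosome 18, leaving out chromosome Y with its 8 E13.5 peaks. On chromosome X, 64.6% of E16.5 peaks were gained and 36.4% of E13.5 peaks were lost.

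**Figure D4:**
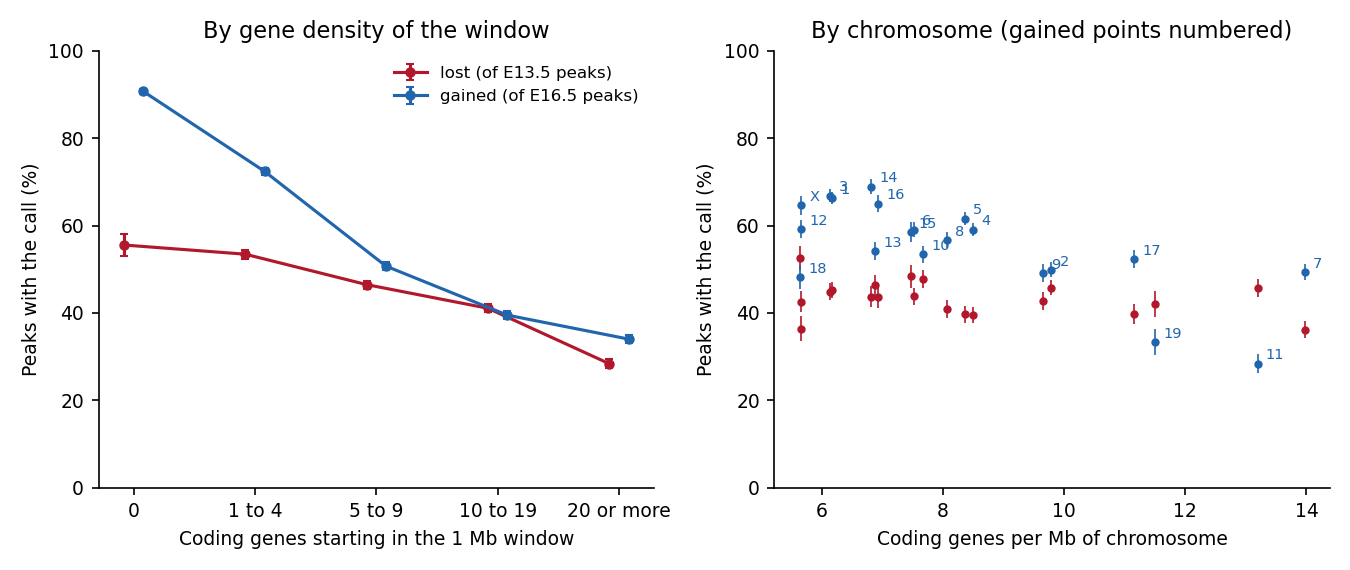
Share of E13.5 peaks lost and of E16.5 peaks gained (y axes, %, with 95% Wilson intervals), by number of coding genes starting in the 1 Mb window (left) and by coding genes per Mb of chromosome (right, chromosome Y left out). The gained share goes from 90.7% in windows without a gene start to 34.0% in the densest, and chromosome 11 has the lowest share, 28.4%.

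Gained peaks also lay side by side. Counting neighbouring peaks of the 3 calls along each chromosome, 46.4% of gained peaks lay in unbroken runs of 5 or more, against 15.9% of kept and 8.56% of lost peaks. The longest run held 83 gained peaks over 2.52 Mb without a coding gene (chr3:42083677-44599656). Of these, 60 were in the E16.5 knockout list, 66 at P0, 43 at P3 and 5 in the E13.5 knockout list. The next held 78 gained peaks over 1.82 Mb of chromosome 5, with the single coding gene G6pd2. The longest lost run held 14 peaks over 0.851 Mb at Plcb1 on chromosome 2.

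The knockout lists, which took no part in the calls, showed much of the same division. Of lost peaks, 63.7% were in the E13.5 knockout list and 15.0% in the E16.5 knockout list. Of gained peaks, 7.04% were in the former and 71.9% in the latter. Kept peaks were in both at 90.1% and 94.0%. In all, 9203 lost peaks (52.5%, 51.8% to 53.3%) and 20356 gained peaks (66.2%) had the same call between the 2 knockout lists. Among peaks at gene starts, 36.9% of lost ones were in the E16.5 knockout list and 22.7% of gained ones in the E13.5 knockout list. By gene, the same call was made at 273 of the 661 lost starts (41.3%) and at 470 of the 869 gained starts (54.1%).

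After birth most lost peaks stayed absent and most gained peaks were still present at P0. The P0 list held 67258 peaks and the P3 list 44760, and the shares found in each were not adjusted for list length. Of lost peaks, 14.9% were in the P0 list, 18.3% in the P3 list and 75.9% in neither. At P3 alone of the 2 were 9.10%. Of gained peaks, 70.0% were at P0 and 40.7% at P3. They divided into 38.1% found at both, 31.9% at P0 and not P3, 2.57% at P3 and not P0, and 27.4% at neither. Of the 661 genes with a lost start peak, 54.0% had a start peak at P0, and of the 869 with a gained one, 76.6% did. In none of the 4 other lists were 27.7% of lost, 13.9% of gained and 0.776% of kept peaks.

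**Figure D5:**
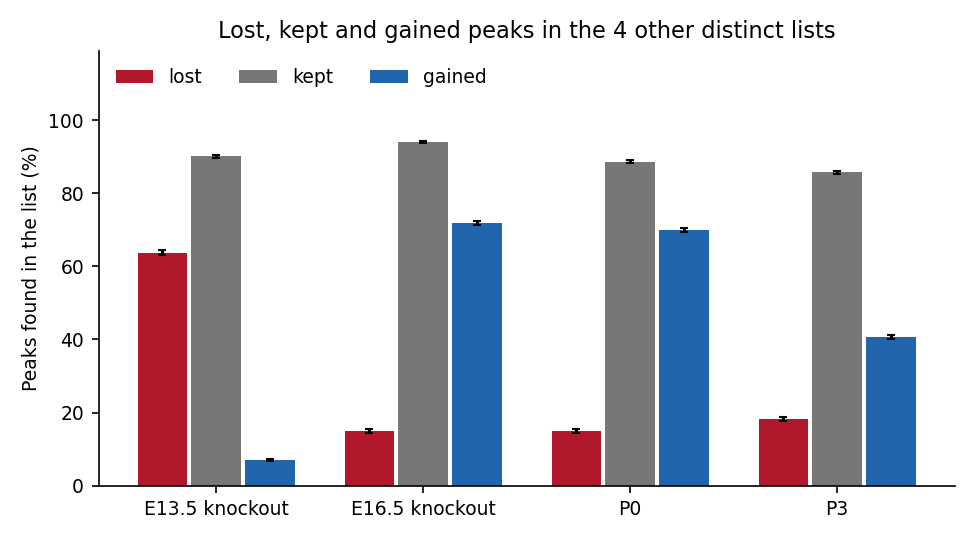
Share of lost, kept and gained peaks (y axis, %) found in each of the 4 other distinct lists (x axis), with 95% Wilson intervals as error bars. Gained peaks go from 7.04% in the E13.5 knockout list to 71.9% in the E16.5 knockout list and 40.7% at P3.

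Gene families outside the lists were counted after the data were seen. Of 1110 olfactory receptor genes, 36.7% had a gained peak within 10 kb and 5.05% a lost one, against 33.0% and 33.4% of all coding genes. Of the 1098 without an E13.5 start peak, 4.83% gained one, against 9.97%. Of 230 Vmn1r pheromone receptor genes, 25.7% had a gained and 1.74% a lost peak, and 1 gained a start peak. Of 39 Hox genes, which pattern the body axis, 10 kept a start peak and 2 lost one, and 7 of 27 without one gained one. Neighbouring genes of these clusters share peaks within 10 kb, so the counts are not independent.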

How the data were processed

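ATAC-seq was measured in 16 samples in 8 groups of 2, as their titles name them. Each group has 1 list of peaks, as deposited by the authors, with 3 columns, chromosome, start and end. The deposited values are genome positions on mm10 (per the submitters' processing notes), with no count, signal or score. The notes also name bcl2fastq 2.20, cutadapt 1.18, Bowtie2 2.3.4.1, deepTools 3.5.0 and HOMER 4.10, with no role given. The peak caller's settings, and whether the 2 samples were pooled before calling, are not given in the sources used here. Nearly all peaks have 1 width, so breadth cannot be compared, and depth is unknown.

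Positions were read as 1-based. Genes came from RefSeq on GRCm38.p6. Of 21887 protein-coding genes, 17492 had listed starts, and both outer ends stood in for starts in the other 4395. A peak belonged to a gene when its midpoint lay within the bounds extended by 10 kb, so 1 peak can belong to several genes. Of 505 listed genes, 500 matched. Named genes were the 12 with the highest net gain and net loss, the 8 with the densest gains and losses among genes with at least 4, list members with a changed start peak or the most changed peaks, and Morc1. Members, lists and rules were chosen with earlier results of these data known. Gene-density windows, runs, length classes, families and promoter choices were added after the data were seen. Overlaps were checked with bedtools 2.31.1 and tested on simulated data. Python 3.11.15, numpy 2.4.6, pandas 2.3.3, scipy 1.17.1 and matplotlib 3.10.9 were used. Alternatives were the overlap rule, the start window, the gene set, the gene bounds, autosomes, and peaks supported by the knockout list of the same stage. In the last, a supported peak was kept when either genotype's list of the other stage held it.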

Additional observations from a re-analysis of the deposited data

How the results depend on the processing

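No paired analysis was possible because each group has 1 peak list and no value per replicate, and leaving out a replicate was not run for the same reason. A value was taken to hold when it stayed inside the main 95% interval, or within 1.5 times for a count. Of 71 alternative values, 29 held and 42 moved, and kept peaks stayed the most frequent at gene starts and gained peaks between genes under every alternative run for those shares. The support rule took only peaks found in the knockout list of the same stage. It called them kept when either list of the other stage held them. Its lost and gained peaks were thus the 9203 and 20356 with the same call between the knockout lists. With it, 28.9% of the 31822 supported E13.5 peaks were lost and 46.6% of the 43678 supported E16.5 peaks gained. At least 3 losses without a gain were then found at 204 genes, and at least 3 gains without a loss at 187. Under that rule, added after the data were seen for the other results, 5.10% of lost, 51.3% of kept and 3.39% of gained peaks lay at gene starts and 49.2%, 28.6% and 74.3% between genes, 85.4% of E16.5 peaks in windows without a gene start were gained, and 17.7% on chromosome 11. With a reciprocal overlap of 50%, the lost share was 45.2%, the gained share 58.7%, the shares at starts 7.64% (lost) and 5.16% (gained), the shares between genes 49.6% (lost) and 70.6% (gained), and 63.4% of gained peaks had the same call in knockout cells. Counting peaks within 500 bp as kept gave 41.9% lost, 56.2% gained, 4.96% and 3.57% of lost and gained peaks at starts, 72.2% of gained peaks between genes and 67.0% of gained peaks with the same call in knockout cells. A start window of 500 bp gave 5.09%, 48.5% and 3.41% of lost, kept and gained peaks at starts, both outer ends of each gene gave 6.74%, 47.2% and 4.88%, and listed starts alone, added later, gave 4.38%, 40.9% and 3.08%. With all annotated genes, 11.3% of lost, 55.9% of kept and 10.1% of gained peaks lay at starts and 39.4%, 21.6% and 60.5% between genes. The count of genes with at least 3 gains and no loss was 168 without the 10 kb extension and 633 with each peak given to the gene of its nearest start. Autosomes alone moved none of these values.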
